A study of Arabidopsis thaliana with 9 samples.

Results

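The *exg1-1* and *rlp44-3* mutants of *Arabidopsis thaliana* were compared directly with each other, without the wild type between them. *exg1-1* has a T-DNA in the gene *EXG1* (AT3G08030, spelled EVG1 in the sample labels), and *rlp44-3* has one in *RLP44* (AT3G49750). Both lines are in the Col-0 background, and each stands for a single allele. Whole seedlings were sampled at 7 days after growth at 20 °C in 8 h light and 16 h dark, with 3 libraries per mutant and 3 of Col-0, so that the comparison uses 6 of 9 libraries. The genes compared were those with a mean of 10 or more fitted reads per library in at least 1 mutant, which were 19293 of the 25717 genes with values. Col-0 was used neither to choose genes nor to scale the mutants, and its values are given after those of the mutants as a description.

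*EXG1* encodes a cell wall protein of the DUF642 family. *RLP44* encodes a receptor-like protein of the plasma membrane that binds both the brassinosteroid receptor BRI1 and its co-receptor BAK1, and is known as a link between the state of pectin in the wall and hormone signalling. Plant tissue that is short of sugar, as at the end of a long night, induces a set of genes that release carbon from amino acids. Aliphatic glucosinolates are sulphur-rich defence compounds of the Brassicaceae, made from chain-elongated methionine.

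The deposited values hold 1 fitted value per gene and genotype. The 3 columns of a genotype were multiples of one another over all genes, with a largest relative deviation of 9.6e-15, and none of the values was whole within 1e-06. The spread between seedling samples is therefore not in the table, no replicate test was possible, and no p-value is given. The columns summed to between 10396228 and 12971468 in *exg1-1*, between 11015026 and 11535985 in *rlp44-3* and between 8364383 and 9606982 in Col-0. For each genotype the 3 columns were summed, the sums were scaled by a trimmed mean of their log ratios (TMM), and levels are given as fitted CPM, the scaled sum as a share of the *rlp44-3* total times 1000000. Each log2 ratio is *exg1-1* over *rlp44-3*. The error given beside a fold is an exact 95% counting interval, which covers the sampling of reads only. For genes with little difference, this interval reached, at the median, 0.78 to each side on the log2 scale near 11 reads per library, 0.35 near 50 reads and 0.08 near 1000 reads.

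The gene disrupted in each line was low in that line. *EXG1* had fitted values of 339.3, 412 and 423.3 reads in the *exg1-1* columns, against 1052, 1038 and 1087 in the *rlp44-3* columns. It was 2.78-fold lower in *exg1-1* (counting interval 2.6 to 2.97), and reads of *EXG1* remained in its own mutant. *RLP44* had 30.26, 36.75 and 37.76 reads in the *exg1-1* columns, against 0.3558, 0.3513 and 0.3679 in the *rlp44-3* columns, which is about 1 read over the 3 libraries. The log2 ratio of *RLP44* was 6.57, with a counting interval of the fold from 18 to 4080, and 5.09 when sums under 3 reads were set to 3. Both genes therefore went with the labels of the libraries. Col-0 had 104.2 fitted CPM of *EXG1* and 3.757 of *RLP44*.

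Across the 19293 kept genes the mutants were close. The log2 ratio had a median of 0.00, its middle 50% lay between −0.16 and 0.14, and 90% of the genes lay between −0.52 and 0.44. At least 2-fold differences were found for 177 genes that were higher in *exg1-1* (0.917% of kept genes) and for 194 that were lower (1.01%). At 1.5-fold there were 578 higher genes (3.00%) and 756 lower genes (3.92%). The 2-fold genes, 1.92% of those kept in both directions together against 6.91% at 1.5-fold, were mostly low in reads. Those higher in *exg1-1* had a median of 29.6 reads per library there and those lower in *exg1-1* a median of 25.3 in *rlp44-3*, while the median kept gene had 181 in its higher mutant. Of genes with 10 to 50 reads 6.31% were 2-fold apart, against 0.561% of those with 200 to 1000 reads. The whole counting interval lay beyond 1.5-fold for 123 of the higher and 120 of the lower genes.

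**Figure D1:**
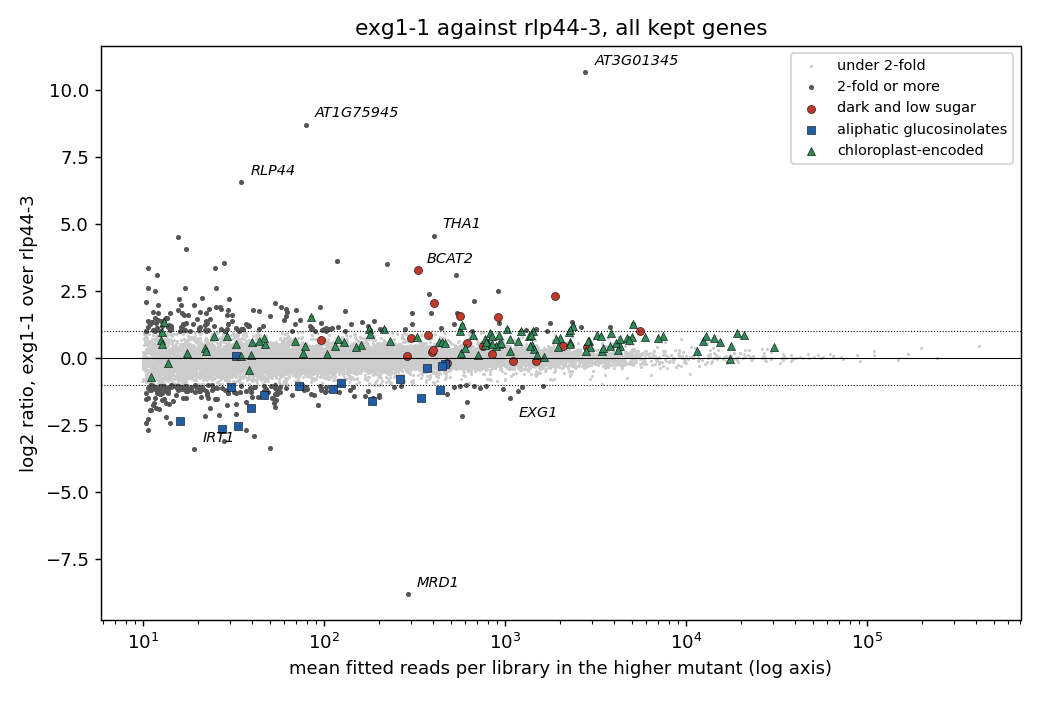
Log2 ratio of *exg1-1* over *rlp44-3* (vertical axis) against the mean fitted reads per library in the higher mutant (horizontal, log axis) for the 19293 kept genes, 1 point per gene. Dotted lines mark 2-fold; red circles are low-sugar, blue squares aliphatic glucosinolate and green triangles chloroplast-encoded genes. The 177 higher and 194 lower genes lie mostly at the left, where reads are few.

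The largest differences belonged to a few genes that were at or near 0 reads in 1 of the mutants. AT3G01345, an uncharacterized protein gene, had 2775 reads per library in *exg1-1*, against 1.656 in *rlp44-3* and 2.938 in Col-0, a log2 ratio of 10.67 (fold interval 695 to 5000). AT1G75945, also uncharacterized, had 79.32 reads in *exg1-1* and none in *rlp44-3* or Col-0, where it sat at the lowest value of the table, which stands for no reads. It was at least 77.3-fold higher in *exg1-1*, taking a floor of 3 reads over the *rlp44-3* libraries. *MRD1* (AT1G53480) was the reverse case, with 0.6669 reads in *exg1-1*, against 290.3 in *rlp44-3* and 244.6 in Col-0. That is 447-fold lower in *exg1-1* (counting interval 123 to 3700), on about 2 reads over the *exg1-1* libraries, and with sums under 3 reads set to 3 its log2 ratio was −8.22. *HEI10* (AT1G53490), which overlaps *MRD1* on the other strand, was 2.55-fold lower. For these 3 largest cases Col-0 stood with *rlp44-3*.

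Among genes with 50 or more reads in the higher mutant, the 12 largest differences towards *exg1-1* included genes of amino acid use, described further on, and of the cell wall space. Threonine aldolase *THA1* (AT1G08630) was 23.8-fold higher (counting interval 18 to 32.6), at 34.87 fitted CPM in *exg1-1* and 1.468 in *rlp44-3*. The blue copper-binding protein gene *BCB* (AT5G20230), known to respond to wounding and metals, was 8.6-fold higher (7.36 to 10.1), and AT5G39580, a peroxidase, was 5.3-fold higher (4.56 to 6.15). A cysteine protease gene, AT1G29090, and AT1G19530 had log2 ratios of 3.62 and 3.53. *PGAZAT* (AT2G41850), a polygalacturonase that cuts pectin, had 4.633 fitted CPM in *exg1-1* against 1.101 in *rlp44-3*. *THA1* overlaps AT1G08620 on the other strand, and *ASN1*, *BCAT2*, *MCCA*, *DIN10* and other genes below also overlap a gene there. Such an overlap was found for 5427 of 19155 annotated kept genes, for 38 of 166 higher and for 44 of 194 lower genes. The paper names a directional library kit, but no source used here says whether strand was used in counting.

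Genes of low sugar and darkness were higher in *exg1-1* as a list. All 20 listed genes were kept, and 17 were higher and 3 lower in *exg1-1*. In this list 9 reached 1.5-fold and 5 reached 2-fold, all of them higher, against 3.00% and 0.917% of all kept genes. The median log2 ratio was 0.50, against 0.00 over all kept genes. *ASN1* (AT3G47340), the asparagine synthetase that stores nitrogen when carbon is short, had 162.6 fitted CPM in *exg1-1* and 32.27 in *rlp44-3*, a 5.04-fold difference (4.72 to 5.38). The dark-inducible β-glucosidase gene *DIN2* (AT3G60140) had 35.12 against 8.528 fitted CPM. *SEN1* (AT4G35770), a gene of darkness and senescence, had 79.37 against 27.31. These 3 genes differed in where Col-0 stood, at 38.85 fitted CPM for *ASN1*, 23.52 for *DIN2* and 17.01 for *SEN1*. *DIN10* (AT5G20250), annotated as a raffinose synthase, was just under the 2-fold line, with 483.6 fitted CPM in *exg1-1* against 242.5. The trehalose phosphate synthase genes of the list were mixed, with log2 ratios from −0.17 for *TPS5* to 0.56 for *TPS10*.

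The breakdown of branched-chain amino acids runs from the aminotransferase through the dehydrogenase complex to the mitochondrial acyl-CoA steps, and it was followed in that order with a list chosen after the values were seen. Of its 13 genes 12 were higher in *exg1-1*, 7 by 1.5-fold and 3 by 2-fold. Over all kept genes the shares were 3.00% and 0.917%, but the direction of the list follows in part from the choice. *BCAT2*, *MCCA*, *DIN3* and *DIN4* are also in the low-sugar list above, so the 2 lists are not separate. The first step, *BCAT2* (AT1G10070), had 28.58 fitted CPM in *exg1-1* against 2.952 in *rlp44-3*, a 9.68-fold difference (7.84 to 12.0), while its paralogue *BCAT-1* differed by 0.39 on the log2 scale. The next enzyme has subunits E1α, E1β and E2. One E1α gene, AT1G21400, was 4.33-fold higher in *exg1-1* (3.92 to 4.81) and the other, AT5G09300, had a log2 ratio of −0.12, so the paralogues were unequal at this step too. The E1β gene *DIN4* and the E2 gene *DIN3* had log2 ratios of 0.76 and 0.87. Isovaleryl-CoA dehydrogenase *IVD* followed with 0.96, and the subunits of methylcrotonyl-CoA carboxylase, the next enzyme of leucine breakdown, had 1.58 (*MCCA*) and 0.41 (*MCCB*).

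A second list of amino acid breakdown was chosen after the values were seen, so its direction follows from the choice. Its 6 genes had log2 ratios from 0.58 to 4.57, among them *THA1*, proline dehydrogenase *ERD5* (0.75), tyrosine aminotransferase *TAT7* (0.73) and methionine gamma-lyase *MGL* (0.70). Single genes chosen in the same way, outside any list, were the transporters *LHT1* (AT5G40780), which imports amino acids into cells, with 24.33 fitted CPM in *exg1-1* against 11.38, and *UMAMIT25* (AT1G09380), with 11.25 against 3.32. Also chosen after their values were seen, the inositol oxygenase genes *MIOX2* and *MIOX4*, whose enzymes open inositol to glucuronic acid, were 2.12-fold (2.01 to 2.23) and 4.61-fold (2.76 to 7.93) higher in *exg1-1*. In the same way, the primary transcripts *MIR156a* and *MIR156c*, precursors of the microRNA that holds plants in the juvenile phase, had 1.666 and 2.325 fitted CPM in *exg1-1* against 0.4161 and 0.6502 in *rlp44-3*, on at most 26.82 reads per library.

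**Figure D2:**
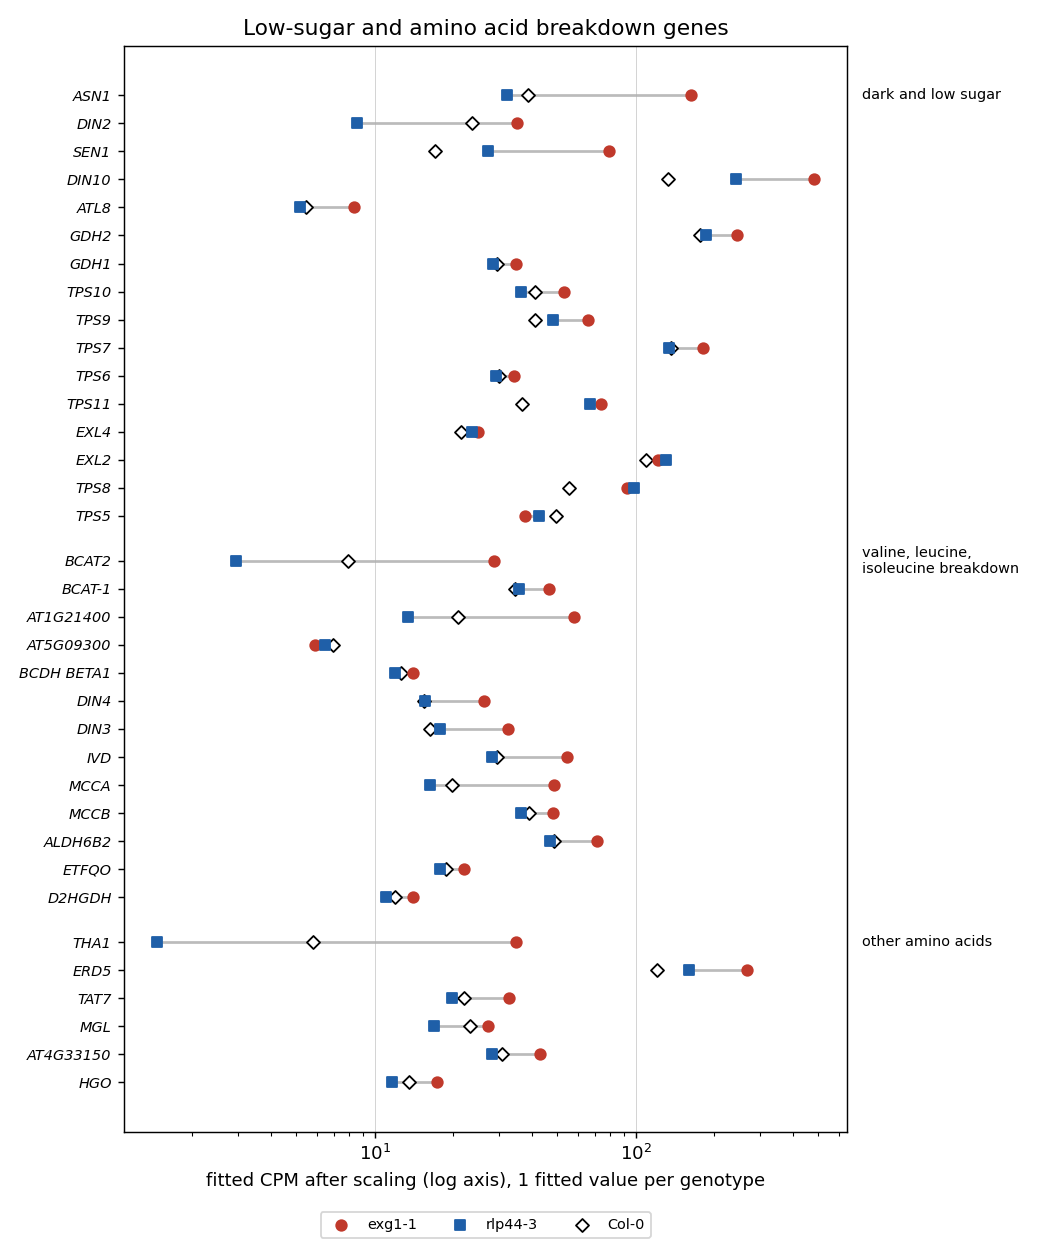
Fitted CPM (horizontal, log axis) of low-sugar genes and genes of amino acid breakdown in *exg1-1* (red circles), *rlp44-3* (blue squares) and Col-0 (open diamonds), with 1 fitted value per genotype and a line joining the mutants. The red circle lies to the right of the blue square, furthest for *THA1* and *BCAT2*, except for AT5G09300, *TPS5*, *TPS8* and *EXL2*.

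A list of 4 genes of stored fat and sugar synthesis was chosen after the values were seen, so its common direction follows from the choice. All 4 were higher in *exg1-1* than in *rlp44-3*, with Col-0 highest for 2 of them. Isocitrate lyase *ICL* (AT3G21720), an enzyme of the glyoxylate cycle that turns seed oil into sugar, had 33.73 fitted CPM in *exg1-1* and 10.44 in *rlp44-3*, a 3.23-fold difference (2.86 to 3.65), against 141.3 in Col-0. Malate synthase *MLS*, of the same cycle, had 8.51 fitted CPM in *exg1-1*, 5.735 in *rlp44-3* and 34.10 in Col-0. Of the later steps, *PPDK* was highest in *exg1-1*, at 45.17, 18.77 and 27.77 fitted CPM in *exg1-1*, *rlp44-3* and Col-0. *PCK1* was nearly equal in *exg1-1* (149.3) and Col-0 (147.2), with 135.5 in *rlp44-3*. Only 7 of 21 seed genes were kept, of which 6 were higher in *exg1-1* and 2 reached 2-fold. The embryo gene *M17* (AT2G41260) had 24.98 reads per library in *exg1-1*, 2.365 in *rlp44-3* and 30.22 in Col-0. The oil body protein gene *OLEO2* had 23.17 in *exg1-1*, 6.379 in *rlp44-3* and 50.67 in Col-0. Both had few reads, and the median of the seed list depended on which genes were kept, between 0.12 and 0.59.

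Clock genes that peak in the morning and day were slightly higher in *exg1-1* as a list. Of 13 genes 12 were higher, with a median of 0.37 and a range from −0.01 (*PRR5*) to 0.66 (*RVE4*), and only *RVE4* reached 1.5-fold. The dawn genes *CCA1* and *LHY* had log2 ratios of 0.56 (fold interval 1.37 to 1.58) and 0.52 (1.21 to 1.71). Evening clock genes were also mostly higher, 10 of 11, but by less, with a median of 0.10. The counting interval lay above 1 for 3 of these 11 and for 12 of the 13 morning and day genes, against 21.1% of all kept genes. Of 9 kept clock output genes 6 were higher and 3 lower, each with a counting interval on that side of 1. They ranged from *COL1*, with 23.79 fitted CPM in *exg1-1* and 12.39 in *rlp44-3*, to the RNA-binding protein gene *GRP7*, with 535 in *exg1-1* and 696.8 in *rlp44-3*.

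Nitrate assimilation was split. Nitrate reductase genes *NIA1* and *NIA2* and the nitrate-responsive *BT1* and *BT2* had log2 ratios of 0.58, 0.72, 1.00 and 0.77, while the nitrate transporter gene *NRT1.1*, nitrite reductase *NIR1* and *LBD37*, *LBD38* and *LBD39*, which repress nitrate genes, lay between −0.28 and −0.07. *BT2* is also known to be repressed by sugar.

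The list with most 2-fold lower genes was the synthesis of aliphatic glucosinolates. Of 17 kept genes 16 were lower in *exg1-1*, 13 by 1.5-fold and 11 by 2-fold, against 3.92% and 1.01% of all kept genes. The median log2 ratio was −1.14. For all 16 the counting interval lay below 1, against 20.1% of all kept genes. Of 5 further genes of the pathway, chosen after the values were seen, 4 were 2-fold lower. The regulators were unequal, with *MYB29* (AT5G07690) at 3.126 fitted CPM in *exg1-1* against 6.473 in *rlp44-3*, and *MYB28* at 32.43 against 39.98. Chain elongation begins with *BCAT4*, which had 3.194 reads per library in *exg1-1* and 15.9 in *rlp44-3*. Methylthioalkylmalate synthase *MAM1* (AT5G23010) was 3.03-fold lower in *exg1-1* (2.57 to 3.6), whereas *MAM3*, which makes the longest chains, had a log2 ratio of 0.08 and was the exception. The isomerase subunit genes *IPMI1* and *IPMI2* and the dehydrogenase gene *IMD1* had log2 ratios of −1.23, −1.42 and −1.17. The shared large isomerase subunit *IIL1*, which also serves leucine synthesis, had −0.07.

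The later steps went the same way. *CYP79F1* and *CYP79F2*, which make the aldoximes, had log2 ratios of −2.53 and −1.37, and *CYP83A1* (AT4G13770) had 10.74 fitted CPM in *exg1-1* against 30.43 in *rlp44-3*, 2.83-fold lower (2.51 to 3.2). Sulphotransferases *SOT17* and *SOT18* had −0.93 and −0.76. Of the enzymes that oxidise the side chain, *FMO GS-OX1*, *FMO GS-OX2* and *FMO GS-OX3* were 2-fold lower, and *FMO GS-OX4* and *FMO GS-OX5*, with more reads, were lower by less (−0.22 and −0.35). Col-0 did not keep to 1 side among the genes that were 1.5-fold lower. It was nearer to *exg1-1* for *CYP83A1* (13.64 fitted CPM), *IMD1* (19.78), *BCAT4* (0.4855), *FMO GS-OX1* (0.6437) and *FMO GS-OX3* (1.593). It lay below both mutants for *MAM1* (3.726), *CYP79F1* (0.3981) and *CYP79F2* (0.7675). The largest differences of the list were among these genes. Col-0 lay between the mutants for *BAT5* (6.99), nearer to *rlp44-3* for *MYB29* (5.342), *SOT17* (9.406) and *SOT18* (19.54), and above both for *FMO GS-OX2* (4.498). Indole glucosinolate genes, made from tryptophan, had a median of −0.30, and 3 of 15 were 1.5-fold lower, none 2-fold.

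A list of low-sulphur genes was chosen after the values were seen, so its common direction follows from the choice. Each of its 11 kept genes was lower in *exg1-1*, with a median of −0.52, and 4 were 1.5-fold lower. The low-sulphur marker genes *LSU3* and *LSU1*, which are neighbours, had 1.871 and 2.023 fitted CPM in *exg1-1* against 4.750 and 4.146 in *rlp44-3*. Both lie within 25 kept genes of *RLP44*, the gene disrupted in *rlp44-3*. *ATSDI1*, which represses glucosinolate synthesis under low sulphur in Arabidopsis, had 2.186 against 4.791. The APS reductase genes, which commit sulphate to assimilation, ranged from −0.58 (*APR1*) to −0.01 (*APR2*).

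**Figure D3:**
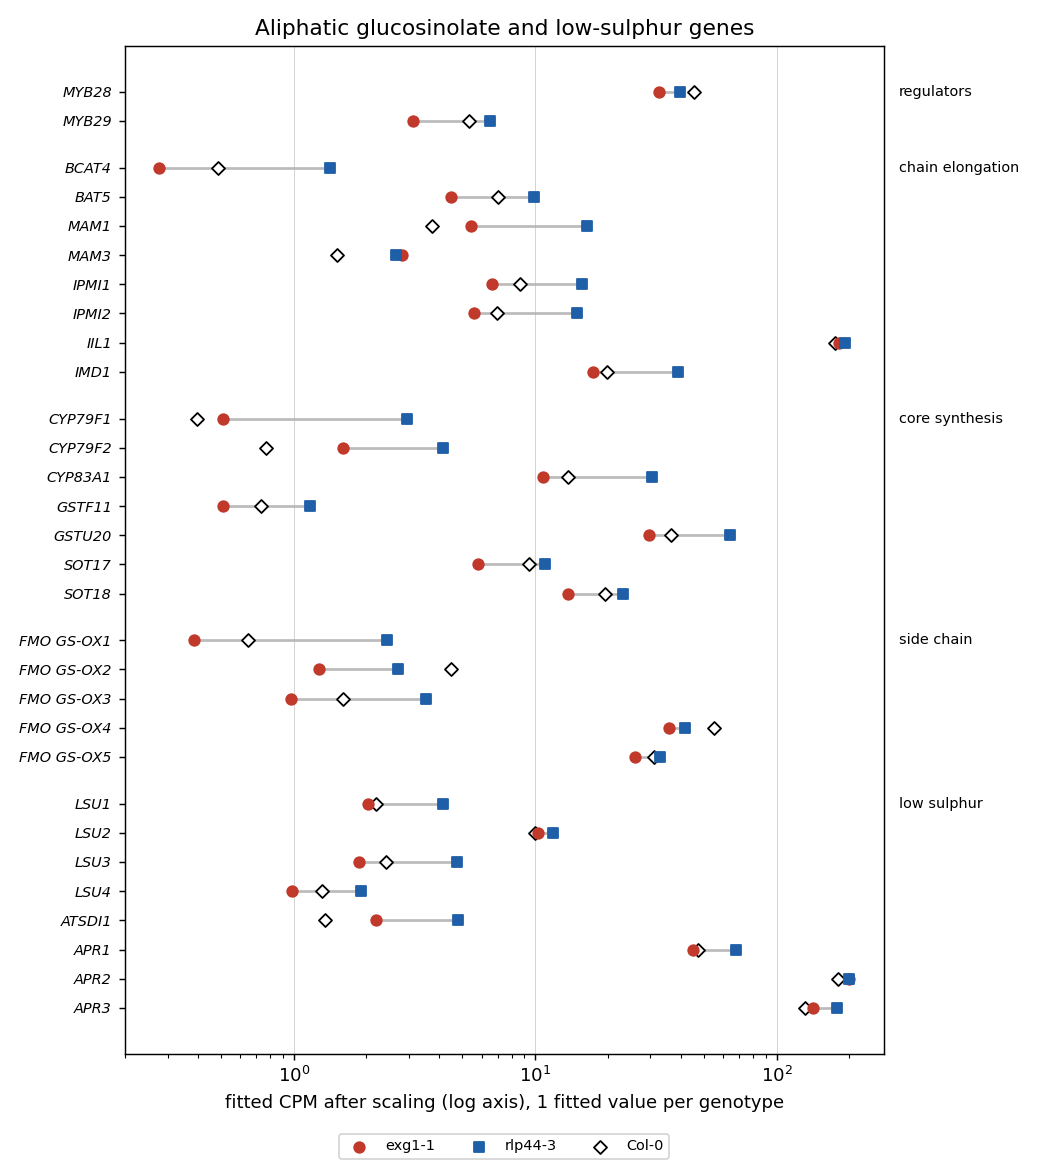
Fitted CPM (horizontal, log axis) of aliphatic glucosinolate genes in pathway order and of low-sulphur genes in *exg1-1* (red circles), *rlp44-3* (blue squares) and Col-0 (open diamonds), with 1 fitted value per genotype and a line joining the mutants. The red circle lies left of the blue square for all genes drawn but *MAM3*.

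The thalianol cluster makes root triterpenes from adjacent genes on chromosome 5. A list of this cluster and the marneral cluster was chosen after the values were seen, so its common direction follows from the choice. Thalianol synthase *THAS1* (AT5G48010) had 44.91 fitted CPM in *exg1-1* and 105.2 in *rlp44-3*, 2.34-fold lower (2.21 to 2.49). *CYP708A2* next to it was 3.07-fold lower (2.8 to 3.36), *CYP705A5* 2.03-fold lower (1.89 to 2.18), and the acyltransferase gene AT5G47980 at the end of the cluster had a log2 ratio of −0.41. *THAS1*, *CYP708A2* and *CYP705A5* were the only run of 3 adjacent genes that were 2-fold lower. Col-0 was nearer to *rlp44-3* for these 3 genes, at 100.8, 53.89 and 83.86 fitted CPM in that order. In the marneral cluster, *CYP705A12* had −1.52 and *CYP71A16* −0.98, while the synthase *MRN1* did not reach 10 reads in either mutant. In general, 21 of the 194 lower genes (10.8%) and 18 of 166 nuclear higher genes (10.8%) had a neighbour called in the same direction, while 2.01% and 1.71% of all kept nuclear genes had such a neighbour. Runs of higher genes included *CYP71B23*, *CYP71B3* and *CYP71B24*, and the thioredoxin superfamily genes AT4G15680, AT4G15690 and AT4G15700. Of the 25 nearest kept genes on each side of a mutated gene, none was 2-fold apart around *EXG1*, and *LSU3* and *LSU1* were around *RLP44*.

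Several iron uptake and nicotianamine genes were lower in *exg1-1*. *IRT1* (AT4G19690), the root iron importer, had 1.857 reads per library in *exg1-1* and 19.04 in *rlp44-3*, 10.5-fold lower (4.21 to 27.7), and none in Col-0. Nicotianamine chelates iron, and its synthase genes *NAS1*, *NAS2* and *NAS4* had log2 ratios of −0.88, −2.17 and −1.13, whereas *NAS3* had −0.03. *FIT*, the regulator of iron uptake, had 5.450 against 8.823 fitted CPM. Of 17 kept iron genes 5 were 1.5-fold lower and 1, *FRO2*, 1.5-fold higher, against 3.92% and 3.00% of all kept genes. *FRO2* had a fold interval from 0.949 to 2.74, and the list's median was −0.05. *IRT1* and *NAS2* passed the read filter through *rlp44-3* only, and *FRO2* through *exg1-1* only.

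Summed levels of root markers were somewhat lower in *exg1-1* than in *rlp44-3*, and lower in both than in Col-0, while single markers were mixed. Of 8 root hair markers 5 were lower, where 9715 of all 19293 kept genes were, and 1 reached 1.5-fold, *RSL4*, which was higher (0.69, fold interval 0.949 to 2.74). Their summed level was 28.11 fitted CPM in *exg1-1*, 32.37 in *rlp44-3* and 41.92 in Col-0. Of 11 endodermis and suberin markers 7 were lower, with sums of 127.6 in *exg1-1*, 150.6 in *rlp44-3* and 163.6 in Col-0. In the same order, the 9 guard cell and stomatal markers summed to 73.00, 69.29 and 70.10, and the 4 epidermis markers to 824.6, 797 and 745.9. Every marker of these 4 lists was kept, and none was at 0. Fewer cells of a type and less RNA per cell cannot be told apart in whole seedlings, and the part of the root markers in the thalianol, iron and sulphur values was not tested.

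Phenylpropanoid and flavonoid genes had a median of −0.32, with 15 of 18 lower in *exg1-1*. Dihydroflavonol reductase *DFR* (AT5G42800), which leads to anthocyanins, had 17.03 reads per library in *exg1-1* and 52.70 in *rlp44-3*, 3.18-fold lower (2.31 to 4.45). *LDOX* after it had −0.83, and *GSTF12* (*TT19*), which carries anthocyanins to the vacuole, had −1.48. The early genes *TT4* and *TT5* had −0.76 and −0.83. *DFR* and *LDOX* had 5.504 and 6.470 fitted CPM in Col-0, above both mutants.

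Stress regulators showed larger differences in single genes and smaller ones in some lists. *WRKY70* (AT3G56400), a factor of salicylic acid and brassinosteroid responses, had 15.57 reads per library in *exg1-1*, against 53.46 in *rlp44-3* and 9.606 in Col-0, 3.52-fold lower in *exg1-1* (2.51 to 4.95). *ORA47* and *ERF105*, AP2/ERF factors that respond to wounding or cold, had log2 ratios of −1.70 and −1.45, and both overlap a gene on the other strand. Chosen after their values were seen, *ACS6* (AT4G11280), which makes the ethylene precursor, had 5.970 fitted CPM in *exg1-1* against 16.48, and *MKK9*, a kinase upstream of ethylene signalling, 4.329 against 9.124. For these 5 genes Col-0 was nearer to *exg1-1*. It lay below both mutants for *WRKY70*, *ORA47*, *ERF105* and *MKK9*, at 1.061, 0.5589, 0.7728 and 3.567 fitted CPM. In the same order, *exg1-1* had 1.35, 0.8968, 1.306 and 4.329. *RAP2.6* and *WRKY49* were higher in *exg1-1*, by 2.11-fold (1.49 to 3.04) and 6.15-fold (3.33 to 12.5). The wound and graft list had a median of −0.36 (10 of 12 lower, 2 of them 2-fold), the WRKY family 0.06, salicylic acid genes −0.25 and jasmonate genes −0.20. The counting interval lay below 1 for 7 of 12 wound and graft genes and 12 of 23 jasmonate genes, against 20.1% of all kept genes. In the jasmonate list *VSP1* and *LOX2* were 2-fold lower, at −1.55 and −1.05.

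XTH enzymes cut and rejoin xyloglucan, and expansins loosen the wall. Both families held genes on either side. Of 26 kept XTH genes, with a median of 0.22, or 0.08 in another setting, 16 were higher in *exg1-1*, 7 by 1.5-fold and 3 by 2-fold, against 2 and 1 lower. Over all kept genes, 3.00% and 0.917% were higher by these folds and 3.92% and 1.01% lower. *XTH24* (AT4G30270) had 203.5 fitted CPM in *exg1-1* and 79.29 in *rlp44-3*, 2.57-fold higher (2.45 to 2.68), and was among the 6 genes with most reads of those 2-fold higher. *XTH25* and *XTH33* had 1.38 and 1.04 on few reads. *XTH20* (AT5G48070) was 2.24-fold lower in *exg1-1* (1.88 to 2.68), and *XTH19*, of the same subgroup, had 4.376 against 7.786 fitted CPM, with Col-0 at 15.29. The touch-induced *XTH22* differed little between the mutants, at 49.78 fitted CPM in *exg1-1* and 55.77 in *rlp44-3*, and lay above Col-0 (17.43) in both.

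Of 21 kept expansins 12 were lower and 9 higher in *exg1-1*, with a median of −0.18. *EXPB3* (AT4G28250) had 90.45 fitted CPM in *exg1-1* and 156.5 in *rlp44-3*, 1.73-fold lower (1.66 to 1.81), and *EXPA20* had −0.70. Only *EXPA17*, known from lateral root emergence, reached 2-fold, at 3.806 against 1.779 fitted CPM. *TBL15*, a single gene chosen after its values were seen, is of a family that acetylates wall polysaccharides and had 8.314 reads in *exg1-1* and 22.96 in *rlp44-3*.

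**Figure D4:**
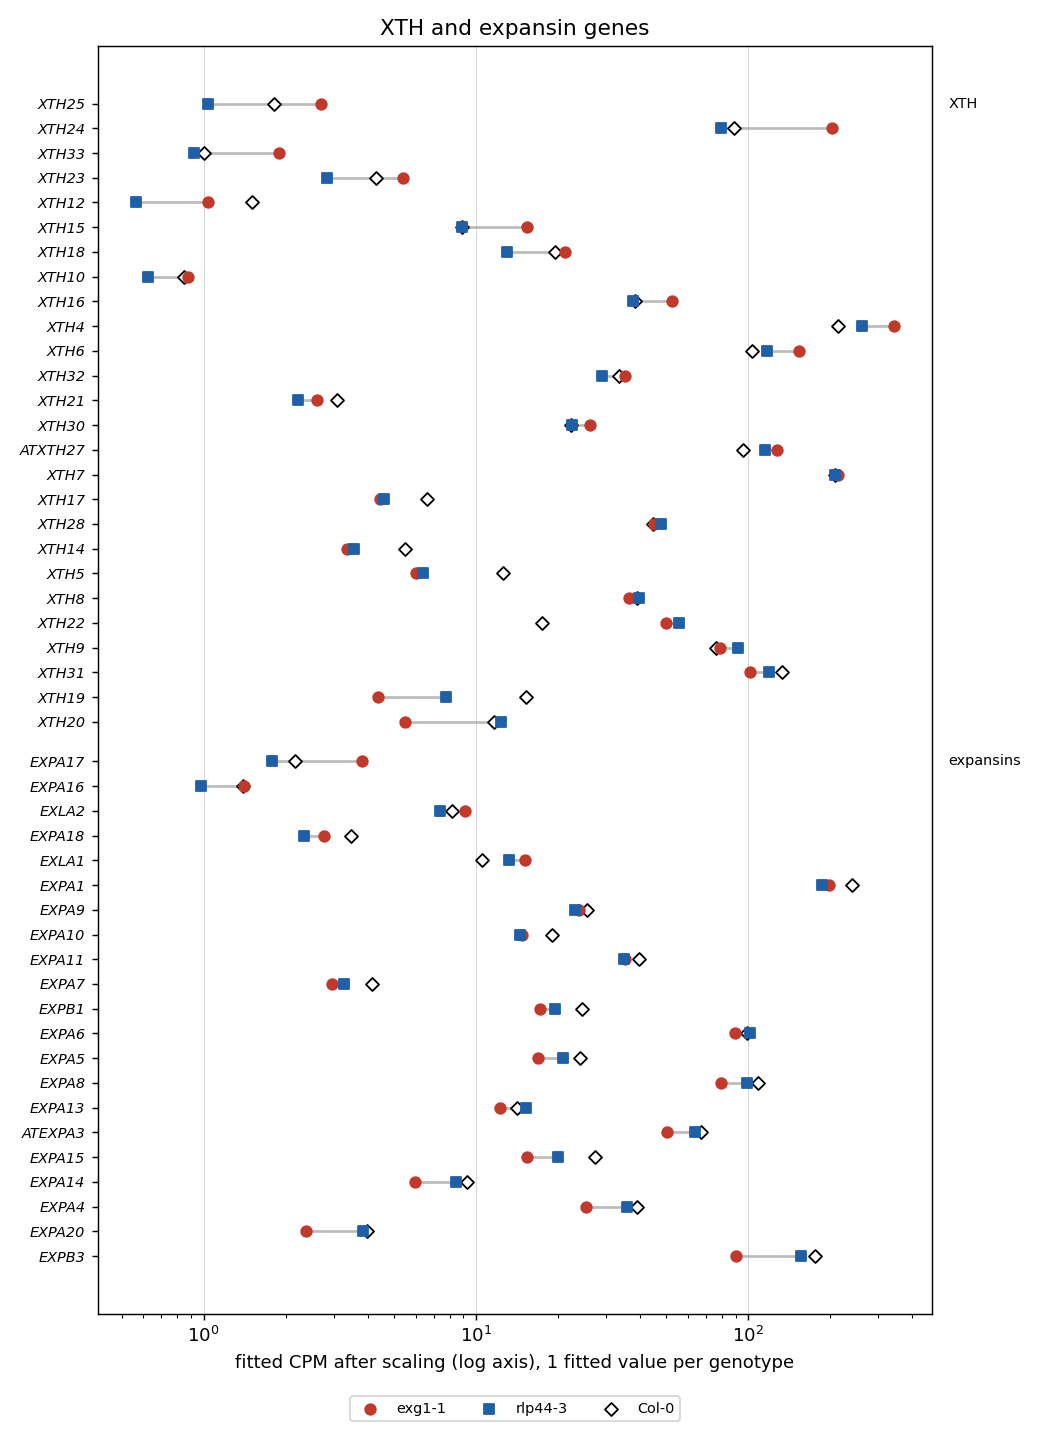
Fitted CPM (horizontal, log axis) of all kept XTH and expansin genes in *exg1-1* (red circles), *rlp44-3* (blue squares) and Col-0 (open diamonds), ordered within each family by log2 ratio. *XTH25* and *XTH24* stand at the top and *XTH20* at the bottom of the XTH genes, *EXPA17* and *EXPB3* at the ends of the expansins.

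Other wall and receptor genes differed little. The cellulose synthase genes had a median of 0.19 and lay between −0.33 and 0.50, the highest being *CESA4*, *CESA7* and *CESA8* of the secondary wall, at 0.50, 0.37 and 0.33. Pectin methylesterases and fasciclin-like arabinogalactan proteins had medians of −0.01 and −0.02, the first of which changed sign with the scaling or filter (−0.07 to 0.04). Of the DUF642 relatives of *EXG1*, only AT5G14150 was 1.5-fold apart, with 31.85 reads in *exg1-1* against 48.09. Apart from *RLP44*, the cell wall receptor genes lay between 0.01 and 0.35, with *FER*, *THE1* and *BRI1* at 0.27, 0.35 and 0.22. *PSK4*, a phytosulphokine precursor gene that lies close to *RLP44* and was also chosen after its values were seen, had 12.85 against 6.875 fitted CPM.

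Vascular lists showed no 2-fold gene. Of 17 kept cambium and procambium genes only *TMO5*, which starts divisions of vascular cells, was 1.5-fold apart (−0.60, 81.78 reads in *exg1-1* against 120.5), and *CLE41* and *TMO6* had −0.50 and −0.41. *WOX4*, *ATHB8* and *PXY* had −0.19 (fold interval 0.647 to 1.19), 0.02 (0.93 to 1.11) and 0.25 (1.09 to 1.3). Of 18 kept xylem genes 14 were higher in *exg1-1*, and none was 1.5-fold apart. The counting interval lay above 1 for 6 of them and below 1 for none, against 21.1% and 20.1% of all kept genes. The median of the kept xylem genes was 0.09, and 0.35 among those with 50 or more reads in at least 1 mutant. The 22 xylem genes with values summed to 152.1 fitted CPM in *exg1-1*, 127.7 in *rlp44-3* and 153.8 in Col-0. Phloem genes had a median of 0.01, with none 1.5-fold apart. In the brassinosteroid lists, medians were 0.09 for synthesis and −0.04 for response, and the synthesis gene *BR6OX2* alone reached 1.5-fold, at 18.62 against 11.80 fitted CPM. Early auxin genes had a median of 0.06. Of 50 SAUR genes 5 were 1.5-fold higher and 6 lower, where 3.00% and 3.92% of all kept genes were. Among them, 1 higher and 3 lower SAUR genes reached 2-fold, on at most 20.23 reads per library in the higher mutant. Of all kept genes with 10 to 50 reads, 6.31% were 2-fold apart.

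Small shifts ran through large gene sets. Of 150 cytosolic ribosomal protein genes 147 were lower in *exg1-1*, against 9715 of all 19293 kept genes, with a median of −0.20, summed levels of 21550 and 24540 fitted CPM, and 1 gene, AT3G09680, at 2-fold. Of 33 cell cycle genes 29 were lower, with a median of −0.23. Nuclear photosynthesis genes had a median of 0.02, and of −0.03 when scaled to library totals. Chloroplast-encoded genes were instead higher in *exg1-1*, 102 of 106, with a median of 0.61. At 1.5-fold there were 59 and at 2-fold 11, against 3.00% and 0.917% of all kept genes. The mitochondrial genome's 32 kept genes had a median of 0.18. Libraries were made from polyadenylated RNA, and organelle transcripts took 2.99% of the fitted reads in *exg1-1*, 2.2% in *rlp44-3* and 2.83% in Col-0. The 18S ribosomal RNA gene AT2G01010 was 5.75-fold higher in *exg1-1*, while 18S and 5S genes together took 1.66%, 1.33% and 2.15%. The part of this residual RNA in the chloroplast values was not tested.

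**Figure D5:**
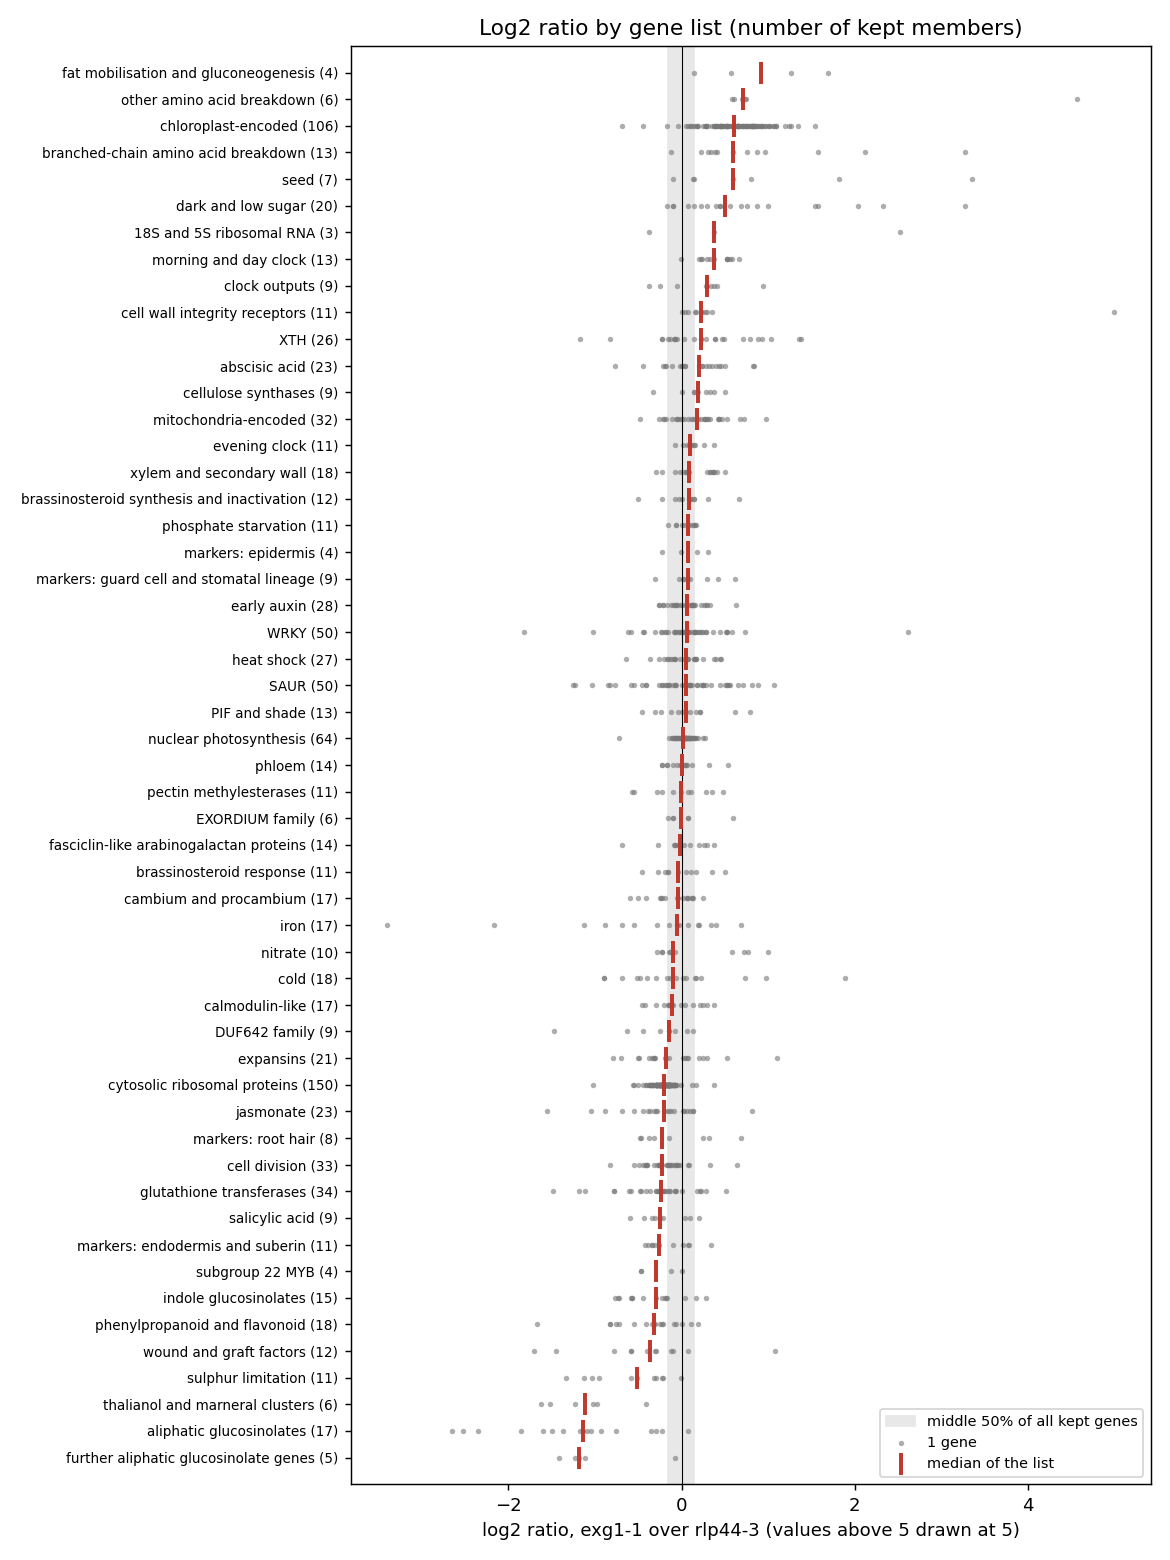
Log2 ratio of *exg1-1* over *rlp44-3* for each kept gene of each list (grey points), with the list's median (red bar) and the middle 50% of all kept genes, −0.16 to 0.14, as a grey band. Values above 5 are drawn at 5, and the number of kept genes stands beside each list. Aliphatic glucosinolate genes (median −1.14) lie near the bottom, and chloroplast-encoded (0.61) and low-sugar genes (0.50) near the top.

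Some 2-fold genes share nearly all their sequence with another gene, so that reads could be assigned to either copy. Of 19144 kept genes with a transcript of at least 100 bases, 69 (0.36%) shared 50% or more of their 100-base stretches with another gene, against 4 of 166 higher and 5 of 194 lower genes. The copies *LpxC1* (AT1G24793) and *LpxC3* (AT1G25054) had opposite log2 ratios, 3.54 and −1.53, and their sum had 0.40 (fold interval 0.982 to 1.78). They belong to a set of 4 copies, of which only these 2 had values. AT2G01010 and its copy AT3G41768 together had 0.38. *SAE1B* (AT5G50580) had 5.03 reads in *exg1-1* against 50.09 in *rlp44-3*, and 3.594 in Col-0, and its copy AT5G50680 had no value in the deposited data. AT1G53880, at −3.08, also has a copy without a value, while AT5G36790 had −1.01 alone and together with its copy AT5G36700. How reads were shared between copies is unknown, so these values are uncertain.

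In the direct comparison either mutant may be the one that stands apart from Col-0. Col-0 lay between the mutants for 120 of 177 higher and for 120 of 194 lower genes. It was nearer to *rlp44-3* than to *exg1-1* for 103 of the higher genes and for 133 of the lower genes. Of those with 50 or more reads, these were 49 of 71 and 39 of 60. No test of these shares was made, since the Col-0 values carry no spread.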

How the data were processed

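Poly(A) libraries of 7-day seedlings were sequenced by the authors, whose tools were fastp, HISAT2, HTSeq and DESeq2 with the TAIR10 build. Versions of these tools and the strand setting of the counting are not given in the sources used here. Although named as counts, the deposited table holds values on the scale of reads that are proportional between the columns of a genotype, as fitted means of a model are and read counts are not, so no count model or replicate test was applied. Of 33341 rows, 25717 had values. Another 3 columns of per-sample values match no sample here and were not used. Columns were assigned to genotypes by name, which fixes the genotype and not the library.

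The 3 columns of each genotype were summed. TMM factors (trims of 30% of log ratios and 5% of mean levels) came from own code in Python 3.11.15, tested on simulated data. Counting intervals are exact and conditional binomial. Genes were called at 2-fold, with 1.5-fold as a second rule. Gene names, order and shared sequence came from the RefSeq annotation of TAIR10.1, which held 19155 of the 19293 kept genes. Named genes are both mutated genes, the 12 largest ratios in each direction at 50 or more reads, the 6 with most reads among 2-fold genes in each direction, in each list up to 5 members with the largest ratios and any 1.5-fold member, and genes at 3 reads or fewer in 1 mutant and 50 or more in the other. The genes and lists were chosen with earlier results of these data known, and 7 lists, and every named gene outside this rule, were added after the values were seen. Alternatives covered scaling, read filter, organelle genes, GC content and single columns, with 2 added after seeing the data (a floor of 3 reads, and ribosomal RNA left out).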

Additional observations from a re-analysis of the deposited data

How the results depend on the processing

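The counts of 2-fold genes moved by over 1.5 times with the read filter only. With no filter 953 genes were higher and 1258 lower in *exg1-1*, with 10 reads required in both mutants 91 and 93, and with 50 reads required in at least 1 mutant 69 and 64, against 177 and 194 in the report. Scaling moved them less, to 152 higher and 232 lower with library totals and 158 and 219 with the upper quartile, and removing a trend on GC content gave 186 and 191. Leaving out single columns gave 174 to 184 higher and 194 to 199 lower genes, and log2 ratios of −1.47 for *EXG1* and 6.57 for *RLP44* in each case. The columns are multiples of one another, so this says nothing about seedlings. No paired analysis was possible because the columns hold no replicate spread. Other scalings moved the median of all kept genes by at most 0.06 on the log2 scale. No result reversed among 286 single log2 ratios and 53 list medians, of which 32 of 4459 and 7 of 843 values moved beyond counting error or the spread of the list. Medians near 0 changed sign for the lists of PIF and shade (−0.01 to 0.07), SAUR (−0.05 to 0.08), nuclear photosynthesis, pectin methylesterases and phloem genes. The median of the XTH genes lay between 0.08 and 0.22 and that of xylem genes between 0.03 and 0.35. With sums under 3 reads set to 3, *RLP44* had 5.09 and *MRD1* −8.22. Depth limits what can be said of genes with few reads, and the spread between seedlings is unknown for every gene.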

Other observations

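Further lists showed no common direction or smaller differences. Of 34 glutathione transferases, which conjugate reactive compounds, 29 were lower in *exg1-1*, 3 of them 2-fold, against 1.01% of all kept genes. The list's median log2 ratio was −0.24. *GSTU24*, *GSTU25* and *GSTF9*, which are in none of the glucosinolate lists, had 41.09, 51.53 and 375.9 fitted CPM in *exg1-1*, against 70.62, 88.31 and 572.3 in *rlp44-3*. Of 18 cold genes 3 were 1.5-fold higher and 3 lower, against 3.00% and 3.92% of all kept genes. *COR27*, a cold and clock gene, was at 2.312 fitted CPM in *exg1-1* and 0.6231 in *rlp44-3*, while *COR15A* and *KIN1*, which protect cells in frost, were at 10.42 and 4.083 in *exg1-1*, against 19.43 and 7.549 in *rlp44-3*, and higher still in Col-0 (46.60 and 23.20). Abscisic acid genes had a median of 0.20, with *ABI5*, a factor of seed and seedling arrest, at 0.83 and the synthesis gene *NCED3* at −0.77. Phosphate starvation genes lay between −0.16 and 0.17, calmodulin-like genes between −0.46 and 0.37, and heat shock genes between −0.64 and 0.46.

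Among the 12 largest differences towards *rlp44-3* were genes of no list. AT5G37990, annotated as an S-adenosylmethionine-dependent methyltransferase, had 11.38 fitted CPM in *exg1-1* and 51.16 in *rlp44-3*, 4.5-fold lower (counting interval 4.03 to 5.03), and its neighbour AT5G38000 was also 2-fold lower. *CYP71A19* and *TPS12*, a terpene synthase gene, are neighbours and were both 2-fold lower in *exg1-1*, the second chosen after its values were seen. *DR4* (AT1G73330), named for its repression by drought, had 71.23 fitted CPM in *exg1-1*, against 144.2 in *rlp44-3* and 146.4 in Col-0. On the other side, AT2G05540, a glycine-rich protein gene, had 327 fitted CPM in *exg1-1*, against 145.6 in *rlp44-3* and 132.3 in Col-0. AT2G33830, of the dormancy/auxin associated family, had 228.4, 103.1 and 95.30.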
